A study of Mus musculus with 8 samples.

Results

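The genes described here encode 9 subunits of Polycomb repressive complex 1 (PRC1) in the developing mouse retina. They were chosen by gene symbol, and all 9 were found, each as a single entry, among 21827 genes: the chromodomain genes Cbx2, Cbx6, Cbx7, and Cbx8, the RING finger genes Ring1 and Rnf2, the PCGF gene Bmi1, and the polyhomeotic genes Phc1 and Phc2. RNA was sequenced from 8 samples of ICR mice (slc:ICR), with 1 library per condition and no mutant or treated group. Whole retinas were taken at E15 and E18. At P2, P5, and P8, pooled retinas were sorted by flow cytometry into the cells positive for Cd73 (Cd73PC) and the remaining, negative cells (Cd73NC), where Cd73, encoded by Nt5e, is a surface enzyme of rod precursors and rods. Cd73NC is therefore the whole remainder of the retina and not a single cell type. Only postnatal cells were sorted, so between embryonic and postnatal libraries, stage and sorting cannot be told apart.

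PRC1 is known as a gene-silencing complex that places ubiquitin on histone H2A and compacts chromatin. In its canonical form, a Cbx protein reads the H3K27me3 mark left by PRC2, Ring1 or Rnf2 is the ubiquitin ligase, Bmi1 or Pcgf2 supports the ligase, and a Phc protein joins complexes together through its SAM domain. In neural progenitors, Bmi1 is known for holding down the Cdkn2a locus and so keeping cells in division, and many Polycomb targets are developmental regulators such as the Hox genes.

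Expression was given as FPKM, a fragment count scaled to transcript length and to library size, and Cufflinks gave each value a lower and an upper bound. No condition had a replicate library, so differences at 1 stage could not be set against variation between animals and were not tested. The fractions of a stage came from the same pooled retinas, and these 3 pairs were tested together. The bounds describe the estimate within 1 library, and 2 of the 72 member values lay above their own upper bound. A gene was counted as higher or lower when FPKM + 1 differed by 1.5-fold or more (0.58 on the log2 scale). The depth of the libraries relative to E18 ranged from 0.966 to 1.62, the absolute depth was unknown, and 11152 to 12413 genes reached an FPKM of 1. The labels of the fractions were checked with 10 rod markers, whose summed FPKM in Cd73NC was 2.24%, 12.3%, and 7.08% of the Cd73PC sum at P2, P5, and P8. Nt5e had FPKM values of 97.3, 131, and 124 in Cd73PC against 2.43, 31.4, and 9.38 in Cd73NC at the same stages.

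In the RefSeq table of promoters (build GRCm38.p6), 8 of the 9 members had an entry, and Cbx2 had none. The 250 bases before the start of Cbx8, Ring1, Cbx6, and Bmi1 are shown because these genes passed 1.5-fold between the fractions at P5 or P8. They are read 5′ to 3′ on the strand of the gene and lie at chr11:119040914-119041163 (minus strand), chr17:34024681-34024930 (minus), chr15:79834334-79834583 (minus), and chr2:18676768-18677017 (plus). Capitals mark the E-box CACGTG and the cAMP response half-site TGACGT, searched on both strands.
Cbx8: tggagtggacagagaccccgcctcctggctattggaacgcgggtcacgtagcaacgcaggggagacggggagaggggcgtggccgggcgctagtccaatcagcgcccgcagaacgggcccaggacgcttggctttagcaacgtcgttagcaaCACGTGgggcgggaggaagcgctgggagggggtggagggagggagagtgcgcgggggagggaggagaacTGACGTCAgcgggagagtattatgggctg
Ring1: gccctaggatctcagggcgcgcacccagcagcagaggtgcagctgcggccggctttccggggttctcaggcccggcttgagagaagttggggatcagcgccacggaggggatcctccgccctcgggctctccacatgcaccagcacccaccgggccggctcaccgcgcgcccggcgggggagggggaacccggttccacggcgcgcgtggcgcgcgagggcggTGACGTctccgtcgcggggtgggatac
Cbx6: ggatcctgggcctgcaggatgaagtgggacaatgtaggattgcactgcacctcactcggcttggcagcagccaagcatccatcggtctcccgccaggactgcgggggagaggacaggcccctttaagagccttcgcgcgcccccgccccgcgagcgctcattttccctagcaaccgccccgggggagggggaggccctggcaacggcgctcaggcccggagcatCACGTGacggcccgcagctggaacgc
Bmi1: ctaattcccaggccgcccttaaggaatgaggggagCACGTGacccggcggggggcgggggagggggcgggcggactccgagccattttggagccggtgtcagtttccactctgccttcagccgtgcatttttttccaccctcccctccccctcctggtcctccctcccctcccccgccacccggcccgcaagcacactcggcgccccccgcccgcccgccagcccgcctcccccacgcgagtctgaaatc
The E-box stood 98 bases before the start of Cbx8, 26 before Cbx6, and 215 before Bmi1, and a further one 57 bases before Phc2. It was found in 4 of the 8 members and in 6.86% of all 27025 genes with a promoter of this length, counting every window of a gene. The half-site stood 27 bases before the start of Ring1 and 13 bases before that of Phc1, and in Cbx8 it read on both strands at 29 and 27 bases, where the matches overlap as TGACGTCA. It was found in 3 of 8 members and in 7.29% of genes. TAATCC, the core bound by the photoreceptor factor Crx, was found in 1 of 8 members (Phc1) and in 7.21% of genes. The E2F sites TTTCCCGC and TTTGGCGC were found in 0 of 8 members and in 1.03% and 0.485% of genes. The motifs were chosen after these promoters had been seen, so the member counts cannot be read as enrichment over all genes. These matches describe the letters of the windows, and binding was not measured.

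All 9 members were detected in all 8 libraries, but their levels and profiles differed. On the FPKM scale, Phc2 was the most abundant member with a median over the libraries of 108, followed by Bmi1 (39.0), Rnf2 (38.7), and Phc1 (29.7). Cbx8 (13.4), Cbx6 (13.03), Cbx2 (13.02), and Ring1 (11.2) were lower, and Cbx7 was near the limit of the expressed genes at 1.81. The log2 distance between the highest and the lowest library, on FPKM + 1, was widest for Cbx2 (2.36) and narrowest for Rnf2 (0.43). The median over the members was 1.13, beside 1.21 over the 13411 genes that reached an FPKM of 1 in at least 1 library. Of those genes, 82.4% had a smaller span than Cbx2, and 4.07% had a smaller span than Rnf2.

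**Figure D1:**
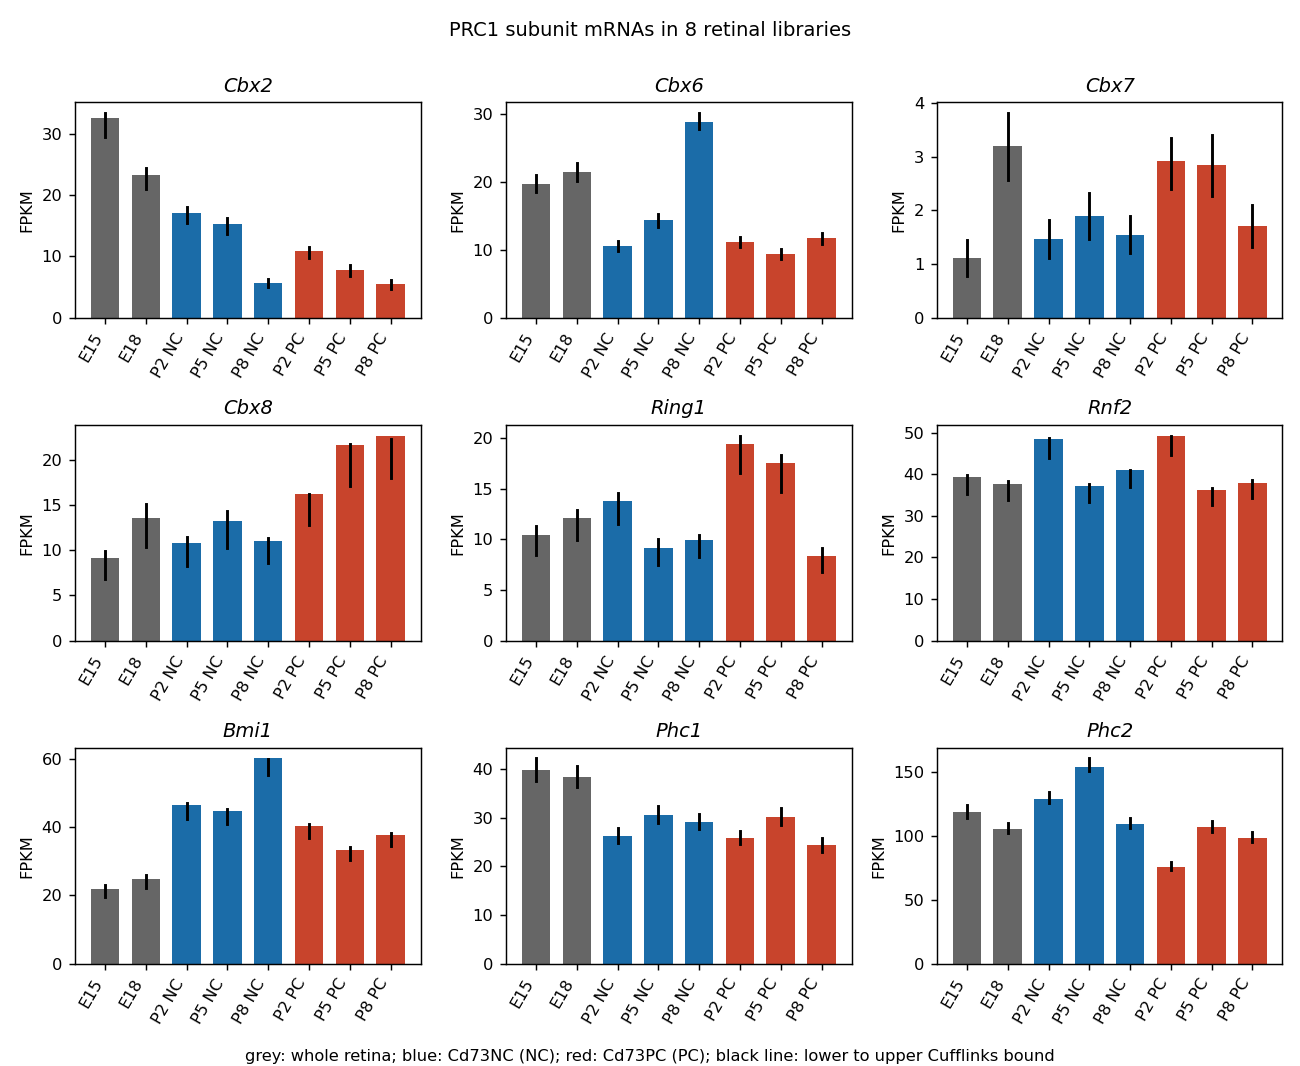
FPKM of the 9 PRC1 subunit genes in each library. Bars give the FPKM on a linear axis that starts at 0 and differs between panels, grey for whole retina, blue for Cd73NC, and red for Cd73PC, and black lines run from the lower to the upper Cufflinks bound. Cbx2 ran from 32.5 at E15 to 5.50 in P8 Cd73PC, Cbx8 was highest in the P5 and P8 Cd73PC libraries, and Rnf2 stayed between 36.3 and 49.1.

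Cbx2, a chromodomain subunit of the E15 retina, was lower at each later stage and lower in Cd73PC than in Cd73NC at P2 and P5. Its FPKM was 32.5 at E15 and 23.2 at E18. In Cd73NC it was 17.1, 15.2, and 5.66 at P2, P5, and P8, and in Cd73PC it was 10.8, 7.80, and 5.50. The whole-retina libraries, which were not sorted, were thus highest, and the P8 libraries of both fractions lowest. From E18 to P2, stage and sorting cannot be told apart. In the order of levels, only P8 Cd73PC and P8 Cd73NC, and P5 and P2 Cd73NC, had overlapping bounds with their neighbour. The log2 ratio of Cd73PC to Cd73NC was -0.61, -0.88, and -0.03 at P2, P5, and P8. The P8 value was 0.31 with quantile normalization, and the P2 value was -0.52 with upper-quartile scaling and -0.51 with quantile normalization, short of 1.5-fold. From P2 to P8 the log2 ratio was -1.44 in Cd73NC and -0.86 in Cd73PC, both past 1.5-fold.

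Cell cycle genes were, like Cbx2, lowest in the P8 libraries, but their highest library was P2 Cd73NC and that of Cbx2 was E15. Across the 8 libraries, the Pearson correlation of Cbx2 with the median of 20 cell cycle genes was 0.93 on log2(FPKM + 1), and that with the median of the rod markers was -0.88. These points are single libraries from 2 fractions of the same retinas and 2 whole retinas, so the values are descriptive. The summed FPKM of the cell cycle genes, which include Mki67, Top2a, and Pcna, was 1254 at E15, 1502 at E18, and 1669 in P2 Cd73NC, where Cbx2 was lower than in the whole retinas. In P5 Cd73NC it was 378, while the bounds of Cbx2 overlapped between P2 and P5 Cd73NC, and in Cd73PC it was 504 at P2 and 161 at P5. In the P8 libraries it was 99.4 (Cd73NC) and 74.2 (Cd73PC). In bulk RNA, fewer cells of a type and less RNA per cell cannot be told apart. The part of dividing cells in the Cbx2 profile was not tested.

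Cbx8, a chromodomain subunit encoded next to Cbx2, was higher in Cd73PC than in Cd73NC at each stage and had the largest ratio of the members at P8, while Cbx7 had the largest at P2 and Ring1 at P5. Its FPKM was 16.2, 21.7, and 22.7 at P2, P5, and P8 in Cd73PC, and 10.8, 13.3, and 11.0 in Cd73NC. At E15 it was 9.16 and at E18 13.5. Every Cd73PC library was above every other library, but the bounds of P2 Cd73PC overlapped those of E18 and of P5 Cd73NC. The log2 ratio was 0.54, 0.67, and 0.98 at P2, P5, and P8, of which the P5 and P8 values were past 1.5-fold, and the P2 value reached it with either scaling (0.63 and 0.61). The bounds of the fractions did not overlap at any of the 3 stages. The Cd73NC level at P5, where the rod marker sum of Cd73NC was largest relative to Cd73PC, was 12.1 after the rod share of the Cd73PC profile had been subtracted. Over the 3 stages together, limma with the stage as a block gave a mean log2 ratio of 0.73 ± 0.15 (SE, 3 pairs of libraries) and an adjusted p of 0.0216. This call was lost with no filter on low values (adjusted p = 0.0959), with no stage block (0.0642), and without the P5 (0.145) or P8 (0.0677) libraries.

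On mm9, Cbx2 (chr11:118884343-118892584, plus strand) and Cbx8 (chr11:118899750-118902227, minus strand) have start sites 17.9 kb apart. The FPKM ratio of Cbx2 to Cbx8 was 3.55 at E15, 1.72 at E18, and 1.58 in P2 Cd73NC, and 0.668, 0.360, and 0.243 in Cd73PC at P2, P5, and P8. Neighbours on the chromosome, Cbx2 and Cbx8 thus had different profiles over the same libraries.

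**Figure D2:**
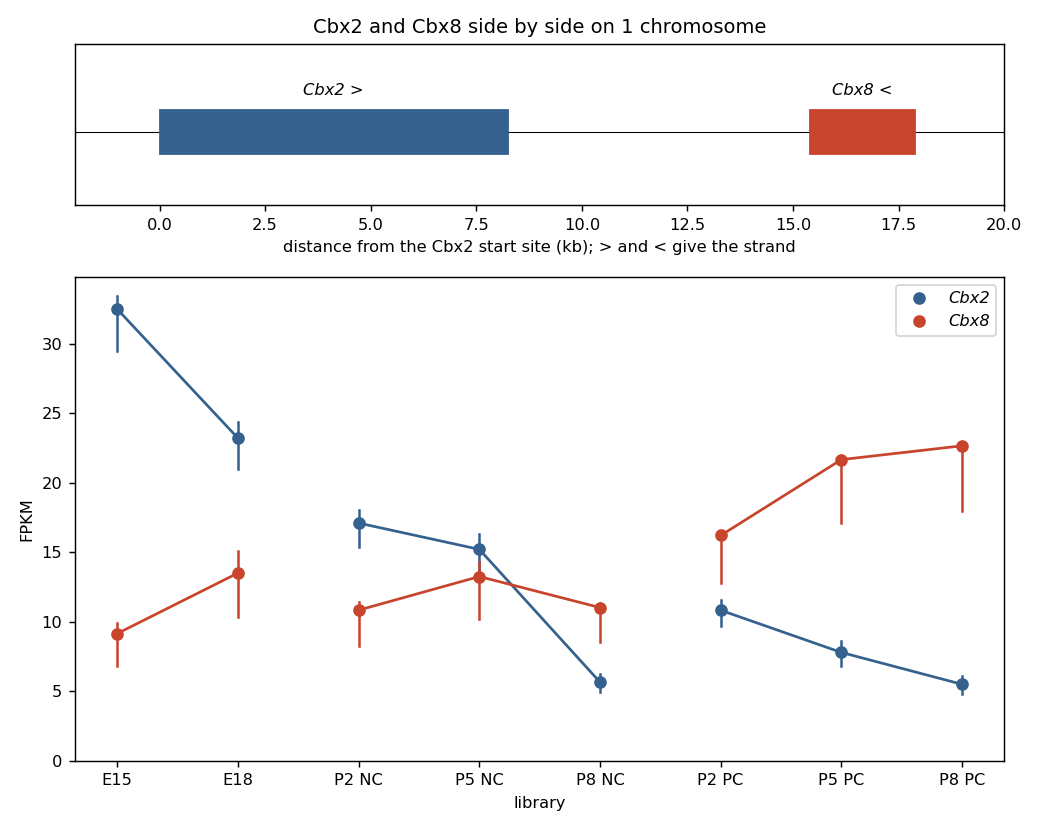
Positions and levels of Cbx2 and Cbx8. Upper panel, the genes drawn to scale by distance from the Cbx2 start site in kb, with arrows for the strand; lower panel, FPKM in each library with lines between the Cufflinks bounds. Cbx2 was above Cbx8 at E15, E18, P2 Cd73NC, and P5 Cd73NC, and below it in the other 4 libraries.

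Cbx6 was lower in Cd73PC than in Cd73NC at P8, and was the member with the largest difference between fractions. Its FPKM was 10.6, 14.4, and 28.8 at P2, P5, and P8 in Cd73NC, and 11.1, 9.38, and 11.7 in Cd73PC. At E15 and E18 it was 19.8 and 21.5. The P8 Cd73NC library stood above all others, the whole retinas came next, and the bounds of the 3 Cd73PC libraries and P2 Cd73NC overlapped from neighbour to neighbour. The log2 ratio between fractions was 0.07, -0.57, and -1.23 at P2, P5, and P8, and the P5 value passed 1.5-fold without a pseudocount (-0.61). From P2 to P8, the log2 ratio of Cbx6 was 1.37 in Cd73NC and 0.07 in Cd73PC. Within Cd73NC, bipolar markers moved the same way: the summed FPKM of 8 of them was 191 (P2), 457 (P5), and 2206 (P8). In Cd73PC this sum also rose, with values of 53.0 (P2), 87.8 (P5), and 259 (P8), whereas Cbx6 did not pass 1.5-fold between P2 and P8. All 8 bipolar markers were lower in Cd73PC at P8, and 2 of them were at 0 in P2 Cd73NC. Also lower in P8 Cd73PC were 7 of 8 Muller glia markers, with a sum of 392 against 1288. So were 4 of 5 erythroid markers (2764 against 7007) and all 8 progenitor markers (40.3 against 162). Of 6 amacrine markers, 4 were lower and 1 was higher, with a sum of 77.3 against 207. The part of these cell types in the Cbx6 difference was not tested.

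The values of Cbx6 are uncertain because its locus (chr15:79654328-79664763, minus strand, mm9) lies within that of Npcd (chr15:79616781-79664763), which has the same strand and start. Npcd spans both Cbx6 and its neighbour Nptxr, a neuronal pentraxin receptor, and how the estimate divided shared reads is unknown. The FPKM of Npcd was 5.57 at E15 and 8.28 at E18, 1.58, 1.64, and 6.76 in Cd73NC at P2, P5, and P8, and 0.640, 0.756, and 0.781 in Cd73PC. Npcd was thus also high in the whole retinas and in P8 Cd73NC, at a lower level than Cbx6. Nptxr, by contrast, was 5.33 at E15, 5.81 at E18, and 0.711 in P8 Cd73NC.

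**Figure D3:**
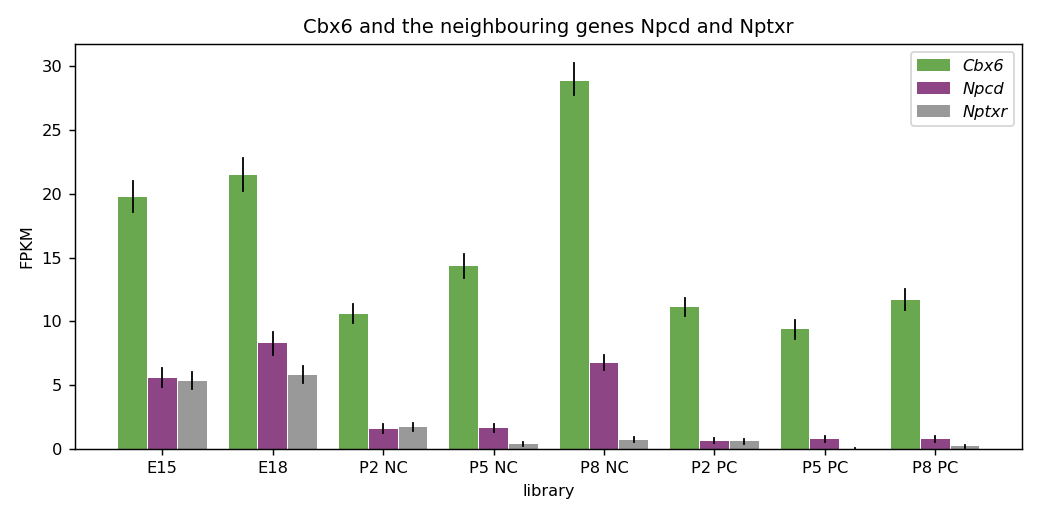
FPKM of Cbx6, of Npcd, which shares its start, and of Nptxr in each library, with black lines from the lower to the upper Cufflinks bound. Cbx6 (28.8) and Npcd (6.76) were high in P8 Cd73NC, and Nptxr (0.711) was not.

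Cbx7, a chromodomain subunit known from embryonic stem cells, starts 98.3 kb from Cbx6 on the same chromosome (chr15:79746237-79763076, mm9) and was the weakest member. Its FPKM was 1.12 at E15 and 3.20 at E18, which was a log2 ratio of 0.98 and the single member past 1.5-fold between the embryonic stages. Over all genes, 4.61% were higher and 2.09% lower at E18, and over genes with an FPKM of at least 1 in either library 7.6% and 3.47%. In Cd73NC it was 1.48, 1.91, and 1.55 at P2, P5, and P8, and in Cd73PC 2.92, 2.84, and 1.71. The Cd73PC levels were above Cd73NC at P2, with a log2 ratio of 0.66, whereas the P5 (0.40) and P8 (0.09) ratios were below 1.5-fold and their bounds overlapped. With quantile normalization the P5 and P8 ratios were 0.82 and 0.66. All 7 neighbouring pairs in the order of its levels had overlapping bounds.

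The relative levels of the 4 Cbx members therefore differed between libraries, while their summed FPKM lay between 39.99 and 62.5. Cbx2 made up 51.9% of the sum at E15, 37.8% at E18, and 42.8% in P2 Cd73NC, but 12.02% in P8 Cd73NC and 13.2% in P8 Cd73PC. Cbx8 made up 14.6% at E15 and 54.5% in P8 Cd73PC. Cbx6 reached 61.3% in P8 Cd73NC against 28.2% in P8 Cd73PC. Cbx7 stayed between 1.79% and 7.11%. Shares within a library do not depend on a scaling factor between libraries.

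**Figure D4:**
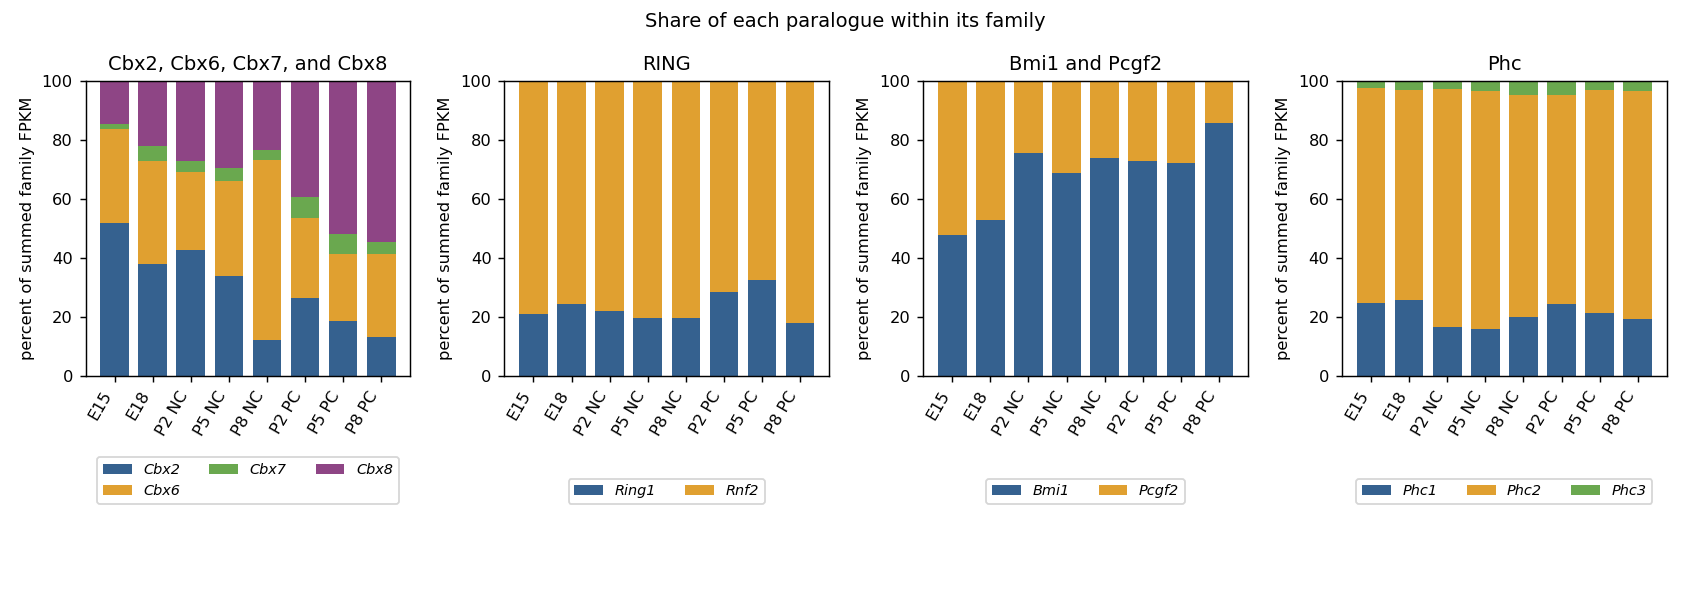
Share of each paralogue in the summed FPKM of its family, in percent, for each library. From left to right, the panels show the 4 Cbx members, the RING genes, Bmi1 with Pcgf2, and the Phc genes. Cbx2 was the largest Cbx share at E15 (51.9%), Cbx6 in P8 Cd73NC (61.3%), and Cbx8 in P8 Cd73PC (54.5%), while Rnf2 and Phc2 led their families in all 8 libraries.

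Of the 2 ubiquitin ligase subunits, Ring1 differed between fractions at P5 and Rnf2 did not pass 1.5-fold in any comparison. Ring1 (chr17:34157737-34161625, minus strand, mm9) had an FPKM of 19.4, 17.6, and 8.32 in Cd73PC at P2, P5, and P8. It was 13.8, 9.15, and 9.94 in Cd73NC, 10.4 at E15, and 12.1 at E18. The P2 and P5 Cd73PC libraries were above the other 6, with bounds apart from them, and P8 Cd73PC was the lowest. The log2 ratio between fractions was 0.47, 0.87, and -0.23 at P2, P5, and P8, and from P2 to P8 it was -1.13 in Cd73PC and -0.43 in Cd73NC. The P8 ratio was 0.06 with quantile normalization, and the bounds overlapped at that stage.

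Rnf2 (chr1:153316536-153347953, minus strand, mm9), also known as Ring1B and the main ligase subunit in most cells, had an FPKM of 39.3 at E15 and 37.7 at E18. In Cd73NC it was 48.5, 37.2, and 41.0 at P2, P5, and P8, and in Cd73PC 49.1, 36.3, and 38.0. The P2 libraries were above the other 6, whose neighbours all had overlapping bounds. The log2 ratio between fractions lay between -0.11 and 0.02. Ring1 accounted for 28.4% and 32.7% of the RING sum in P2 and P5 Cd73PC, and for 18.0% to 24.2% in the other libraries.

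Bmi1 (chr2:18598645-18608256, plus strand, mm9), the PCGF partner of the ligase, was higher in the postnatal libraries than in the embryonic retina and lower in Cd73PC than in Cd73NC at P8. Its FPKM was 21.8 at E15 and 24.7 at E18. In Cd73NC it was 46.4, 44.8, and 60.2 at P2, P5, and P8, and in Cd73PC it was 40.3, 33.4, and 37.8. All 6 postnatal libraries, which were sorted, were above both unsorted whole retinas, and P8 Cd73NC was the highest. Stage and sorting cannot be told apart in this step. The log2 ratio between fractions was -0.20, -0.41, and -0.66 at P2, P5, and P8, with bounds apart at each stage. The P8 value was short of 1.5-fold with upper-quartile scaling (-0.56) and quantile normalization (-0.58). The 8 bipolar markers, 8 progenitor markers, 7 of 8 Muller glia markers, and 4 of 5 erythroid markers were also lower in P8 Cd73PC. Of 6 amacrine markers, 4 were lower and 1 was higher there. The part of these cell types in the P8 difference of Bmi1 and in that of Cbx8 was not tested.

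Pcgf2, the paralogue that can take the place of Bmi1 in PRC1, was at an FPKM of 23.9 at E15 and 21.9 at E18. It was 14.9, 20.2, and 21.3 in Cd73NC at P2, P5, and P8, and 15.0, 12.9, and 6.35 in Cd73PC. The P8 Cd73PC library was lowest, with a log2 ratio to Cd73NC of -1.60. Bmi1 made up 47.8% of the sum of both genes at E15 and 53.0% at E18, 68.9% to 75.7% in Cd73NC and in P2 and P5 Cd73PC, and 85.6% in P8 Cd73PC. The FPKM ratio of Bmi1 to Pcgf2 was 0.915 at E15 and 5.94 in P8 Cd73PC.

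Phc2 (chr4:128331946-128430125, plus strand, mm9), the dominant polyhomeotic gene, was lower in Cd73PC than in Cd73NC at P2. Its FPKM was 118 at E15, 105 at E18, 129, 154, and 109 in Cd73NC at P2, P5, and P8, and 76.0, 107, and 98.4 in Cd73PC. P5 Cd73NC was the highest library and P2 Cd73PC the lowest, each with bounds apart from its neighbour. The log2 ratio between fractions was -0.75, -0.52, and -0.15 at P2, P5, and P8, and the P5 value was -0.66 with quantile normalization. Phc2 made up 70.9% to 80.9% of the Phc sum, and Phc3, which was not among the members, 2.42% to 4.64%.

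Phc1 (chr6:122267749-122287033, minus strand, mm9) did not pass 1.5-fold in any comparison. Its FPKM was 39.9 at E15 and 38.5 at E18, 26.3, 30.6, and 29.1 in Cd73NC at P2, P5, and P8, and 25.9, 30.2, and 24.4 in Cd73PC. Both whole retinas were above all 6 postnatal libraries, whose neighbours in order had overlapping bounds. Here too, stage and sorting cannot be told apart. The log2 ratio between fractions was -0.02 at P2 and P5 and -0.25 at P8, and the P2 and P5 values were above 0 with either scaling.

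Between Cd73PC and Cd73NC, 3 of the 9 members passed 1.5-fold at each stage, and with FPKM as deposited no member passed it at all 3. Cbx8 passed at all 3 stages with upper-quartile scaling (0.63, 0.78, and 1.08) and with quantile normalization (0.61, 0.80, and 1.15), and Cbx7 did so with quantile normalization (0.81, 0.82, and 0.66). At P2, Cbx7 was higher and Cbx2 and Phc2 were lower in Cd73PC, where 8.56% of all 21816 genes were higher and 14.4% lower. At P5, Cbx8 and Ring1 were higher and Cbx2 was lower, beside 7.02% and 15.5% of all genes. At P8, Cbx8 was higher and Cbx6 and Bmi1 were lower, beside 7.54% and 18.6%. Among genes with an FPKM of at least 1 in either library, a group that holds all 9 members, 14.5%, 12.3%, and 13% were higher and 25%, 27%, and 31.3% lower at the same stages. The members called, 1 or 2 in each direction, were therefore close to those shares. Each member called had bounds apart between the fractions, and bounds were apart for 6, 6, and 5 of the 9 members at the 3 stages, beside 66.7%, 63%, and 67.8% of genes with an FPKM of at least 1 in either library (41.7%, 38.3%, and 43.3% of all genes).

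The median log2 ratio of the members was 0.02, -0.04, and -0.15 at P2, P5, and P8, beside -0.14, -0.18, and -0.23 over the expressed genes. Scaling moved these backgrounds: quantile normalization brought the median of expressed genes to -0.03, 0.03, and 0.05 at P2, P5, and P8, and upper-quartile scaling to -0.06, -0.07, and -0.13. With quantile normalization, 10.4% of genes were higher and 10.9% lower at P5, and 12.2% and 12.6% at P8. The differences of Cbx8 at P5 and P8, Ring1 at P5, Cbx2 at P5, Cbx6 at P8, Phc2 at P2, and Cbx7 at P2 were past 1.5-fold under either scaling. The stages were sorted and sequenced as separate libraries, and a difference between stages in these ratios was not tested.

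The fractions were also compared over the 3 stages at once, by limma on log2(FPKM + 1) with the stage as a block. Of 13056 genes with an FPKM of at least 1 in any sorted library, 8.9% were higher and 19.2% lower in Cd73PC at an adjusted p under 0.05. Of the 9 members, Cbx8 passed and the other 8 did not. The mean log2 ratio of Bmi1 was -0.42 ± 0.14 (SE, adjusted p = 0.0807), and that of Phc2 was -0.47 ± 0.16 (adjusted p = 0.0844). Cbx2 was at -0.51 ± 0.20 (adjusted p = 0.119) and Cbx6 at -0.58 ± 0.26 (adjusted p = 0.155). Those of Cbx7 (0.38), Ring1 (0.37), Rnf2 (-0.04), and Phc1 (-0.09) had adjusted p-values from 0.207 to 0.819. With 3 pairs and 2 residual degrees of freedom, limma drew the spread of each ratio over stages toward a trend over all tested genes. The error is therefore not the spread of the gene alone, and the adjusted p-values, that of Cbx8 included, rest on this step. A ratio that differs between stages still widens the error, which does not measure variation between animals of 1 age.

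**Figure D5:**
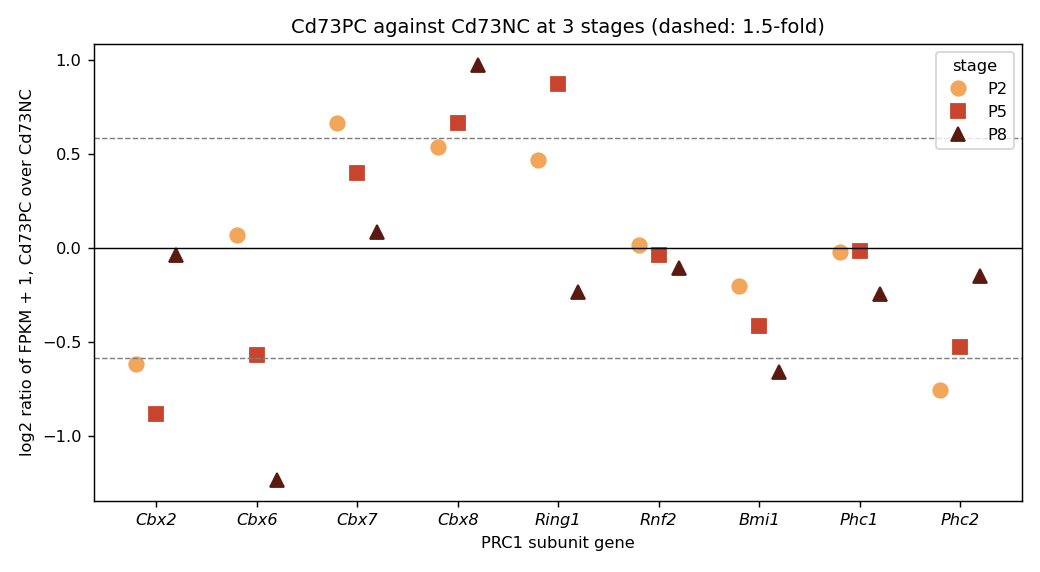
Log2 ratio of FPKM + 1 in Cd73PC to that in Cd73NC for each PRC1 subunit gene at P2 (circles), P5 (squares), and P8 (triangles). Dashed lines mark 1.5-fold. Cbx8 (0.54, 0.67, and 0.98) and Cbx7 (0.66, 0.40, and 0.09) were above 0 at all 3 stages. Bmi1, Cbx2, Phc1, and Phc2 were below 0 at all 3, and Ring1 ran from 0.87 at P5 to -0.23 at P8.

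From P2 to P8, Cbx2 and Ring1 were lower in Cd73PC, and in Cd73NC Cbx2 was lower and Cbx6 higher. Cbx7 in Cd73PC, at 2.92 at P2 and 1.71 at P8 with bounds apart, passed 1.5-fold only with a pseudocount of 0.1 or none. In Cd73PC, 6.4% of all genes were higher and 14.7% lower at P8 (11.2% and 25.7% of expressed genes), and the split of all genes became 9.92% and 9.88% with quantile normalization. In Cd73NC, 13.5% were higher and 14.3% lower (21.6% and 24% of expressed genes). These comparisons share their libraries with those between the fractions, so their values are not independent of them. The median log2 ratio of the members was -0.09 in Cd73PC and 0.02 in Cd73NC, beside -0.19 and -0.06 over the expressed genes. Erythroid markers differed with stage in both fractions, with a summed FPKM of 40.2 in P2 and 2764 in P8 Cd73PC and of 133 and 7007 in Cd73NC, and all 5 were past 1.5-fold; their part in the stage comparisons was not tested. Between E15 and E18, the split of 4.61% higher and 2.09% lower became 3.59% and 3.01% with quantile normalization, and Cbx7 was past 1.5-fold under either scaling.

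Among 5 further canonical PRC1 genes, no gene passed 1.5-fold between the fractions at all 3 stages, and none was higher in Cd73PC at any of them. Scml4, at an FPKM of 0.0230 or less in the sorted libraries, could not pass on FPKM + 1. Only 3 of the 5 genes reached an FPKM of 1 in the P5 and P8 libraries. At P2 no gene passed, at P5 Pcgf2 was lower, and at P8 Pcgf2 and Scmh1 were lower. With either scaling, 0 genes were past 1.5-fold at P5 and 1 was lower at P8. The shares of expressed genes past 1.5-fold at each stage are those given for the members. Scmh1, a SAM-domain partner of the Phc proteins, had an FPKM between 13.5 and 23.1, the highest in P8 Cd73NC.

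Variant PRC1 complexes carry Rybp or Yaf2 in place of a Cbx protein and are brought to DNA by other subunits. Of 24 genes of these complexes, 4 were higher and 5 lower in P2 Cd73PC, and 3 were higher and 6 lower in both P5 and P8 Cd73PC. With either scaling the P2 split was 6 higher and 4 lower, and with quantile normalization it was 5 and 5 at P8 and 3 and 5 at P5. Of genes with an FPKM of at least 1 in either library, 14.5%, 12.3%, and 13% were higher at P2, P5, and P8. Lower were 25%, 27%, and 31.3%, and the counts from FPKM as deposited were close to these shares. Max, the E-box binding partner of Mga in one of these complexes and of Myc, was higher in Cd73PC at all stages, with FPKM values of 64.4, 81.2, and 102 against 35.3, 41.0, and 44.1 in Cd73NC. Auts2, a subunit linked to neuronal gene activation, was lower in Cd73PC at 2.05, 1.67, and 3.03 against 6.78, 7.33, and 27.5. Kdm2b, which binds unmethylated CpG islands, was lower in Cd73PC at 11.9, 7.79, and 6.81 against 18.9, 18.1, and 16.8, and its P2 log2 ratio was short of 1.5-fold with either scaling (-0.53 and -0.52). The abundant subunits Skp1a and Csnk2b, which also serve other complexes, were between 184 and 251 and between 77.3 and 102. Tfdp1, a partner of E2f6, was at 77.1 in Cd73NC and 57.8 in Cd73PC at P2 and at 35.2 and 46.2 at P8.

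Of 7 genes for enzymes and cofactors that remove ubiquitin from H2A, 0, 0, and 1 were higher and 1, 2, and 1 lower in Cd73PC at P2, P5, and P8. Under either scaling, 1 was higher and 1 lower at P2 and at P8, and 0 were higher and 1 lower at P5. The shares of expressed genes are those given for the variant PRC1 genes. Asxl3, a cofactor of the deubiquitinase Bap1, was lower at all stages, with an FPKM of 0.563, 0.397, and 0.595 in Cd73PC against 2.05, 1.51, and 3.75 in Cd73NC. Bap1 itself lay between 38.3 and 56.3, Usp21 between 21.4 and 27.9, and Asxl1 between 8.38 and 22.2. Asxl1 was highest at E15.

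PRC2, which writes the H3K27me3 mark that Cbx proteins read, had 3 of 11 genes higher and 2 lower in P2 Cd73PC, 1 each way at P5, and 2 each way at P8. With upper-quartile scaling these were 2 higher and 1 lower at P5 and 3 and 1 at P8, and with quantile normalization 3 higher and 1 lower at each stage. For these counts too, the shares of expressed genes are those given for the variant PRC1 genes. Ezh2, its methyltransferase, was at 49.1, 21.5, and 13.3 in Cd73PC against 82.1, 43.3, and 32.3 in Cd73NC, whereas its cofactor Jarid2 was at 31.2, 51.5, and 63.9 against 9.90, 30.01, and 30.5. The core subunit Suz12 was close between the fractions at each stage, at 54.0 and 53.2 at P2 and 35.3 and 34.7 at P8.

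HP1 proteins have a chromodomain related to that of the Polycomb Cbx proteins but read H3K9 methylation. Their 3 genes were lower at P8 than at P2 in both fractions, with median log2 ratios of -1.23 in Cd73PC and -1.05 in Cd73NC that passed 1.5-fold under either scaling. Of the expressed genes, 25.7% in Cd73PC and 24% in Cd73NC were lower at P8. Cbx5 was lower in Cd73PC at all stages, with FPKM values of 14.6, 7.37, and 5.62 against 41.7, 20.1, and 20.8. Cbx1 was at 97.4 in P2 Cd73NC and 24.8 in P8 Cd73PC, and Cbx3, the most abundant of them, at 189 at E18 and 112 in P8 Cd73PC.

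Hox genes and the Cdkn2a locus, classical targets of PRC1, were at low levels in these libraries. Of 39 Hox genes, 27 were listed at 0 in all 8 libraries, and the highest of the named ones, Hoxa7, was at 0.0757 at E18. None passed 1.5-fold in any comparison, and none could, because FPKM + 1 barely differs at such levels. Cdkn2a, the locus held down by Bmi1, was between 0 and 1.37, the highest in P2 Cd73NC, and Cdkn2b was between 0 and 0.581. Cdkn2c, a cell cycle inhibitor of the same family, was lower in Cd73PC at 12.3, 5.84, and 2.77 against 34.98, 11.9, and 5.68, and its P8 log2 ratio was -0.37 with quantile normalization. Cdkn2d was at 30.4, 25.1, and 22.3 in Cd73PC and 28.5, 19.6, and 23.1 in Cd73NC.

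Cell cycle genes separated the fractions more widely than the PRC1 genes. All 20 were lower in P2 Cd73PC, 19 in P5, and 14 in P8 Cd73PC, the P8 count becoming 7 lower and 2 higher with quantile normalization. Mcm6, a subunit of the replicative helicase, was at 116 in Cd73NC and 29.4 in Cd73PC at P2. All 8 progenitor markers were lower in Cd73PC at each stage, with sums of 457, 155, and 40.3 against 1809.5, 597, and 162. All 10 rod markers were higher, with sums of 4584, 10444, and 17008 in Cd73PC, and none was at 0 in any library. Microglia markers moved with the P2 comparison, in which all 6 were higher in Cd73PC, with a sum of 43.4 against 7.70; the sums were 37.7 and 54.4 at P5 and 118 and 153 at P8. The part of these cells in the P2 values of Cbx7, Cbx2, and Phc2 was not tested. Ganglion cell markers separated the embryonic from the postnatal libraries, with sums of 957 at E15 and 593 at E18 against 2.64 to 20.2 after birth, and the part of these cells in the embryonic levels of the members was not tested.

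Pairs of members did not share 1 profile. On log2(FPKM + 1) across the 8 libraries, Pearson r ranged from -0.73 (Bmi1 and Phc1) to 0.74 (Cbx2 and Phc1). Cbx2 and Cbx8 had an r of -0.64. Cbx8 had an r of 0.88 with the median of the rod markers. The points are 8 single libraries that share sorts and retinas, and these correlations are descriptive.

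For the 6 members whose log2 levels spanned at least 1, the genes with the most similar profile were taken from 8284 candidates by the same r over 8 libraries. They were Prx (0.99), Gm5088 (0.98), and Chrna3 (0.98) for Cbx2. For Cbx8 they were Morn1 (0.996), Rhpn1 (0.98), and Stk30 (0.98), and Rhpn1 was at 21.9, 43.0, and 36.2 in Cd73PC and at 5.07, 9.32, and 5.69 in Cd73NC. For Cbx6 they were Arhgdig (0.99), Hs3st2 (0.99), and Aoc2 (0.98), and Arhgdig was at 31.8 in P8 Cd73NC and 4.47 in P8 Cd73PC. For Bmi1 they were Txndc15 (0.99), Atad1 (0.97), and Vma21 (0.93). The nearest genes were less alike for Ring1, with H2-Bl (0.94), Mettl9 (0.90), and Hs6st3 (0.87), and for Phc2, with Zfp882 (0.86), Itgb8 (0.85), and Fam84b (0.84). With 8 points and so many candidates, high values are common, and they were not tested.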

How the data were processed

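The authors aligned 36-base single reads to NCBI37/mm9 with TopHat (2.0.8b) and estimated FPKM with Cufflinks (2.1.1), and the deposited tables hold the FPKM of 23021 rows per library with a lower and an upper bound and a status. Failed rows (4 to 10 per library) were taken as missing, 797 rows of small RNAs were left out, and repeated rows of 251 symbols were added together, giving 21827 genes. Values were compared on log2(FPKM + 1), which understates differences of weak genes, and genes past 1.5-fold were counted without a test. The fractions of each stage were sorted from the same retinas per the methods of the study, so Cd73PC was also compared with Cd73NC over 3 stages with the stage as a block (limma 3.58.1 in R 4.3.3, trend, Benjamini-Hochberg adjustment), for genes with an FPKM of at least 1. Depth relative to E18 was read from the steps of rows below an FPKM of 0.3.

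The 9 members are those of the chosen set, and all were named. Of each other list, genes past 1.5-fold in 1 direction at all 3 stages (at most 4 in each direction) and the 3 further genes with the highest mean FPKM were named where the list bears on PRC1. Members and lists were chosen with earlier results of these data known, and the motifs after the promoters were seen. A gene of the lists is not reported here, and its values enter neither the shares nor the list counts. Of the amacrine markers, 6 of 8 were in the tables. Alternatives were a pseudocount of 0.1 or none, an FPKM of at least 1, upper-quartile and quantile scaling, a 2-fold threshold, bounds apart, and rows kept apart. Subtraction of the Cd73PC profile from Cd73NC, in the share given by the rod markers, and the test over stages were added after the data were seen. Gene positions were checked against GENCODE on NCBIM37. Python 3.11.15, numpy 2.4.6, pandas 2.3.3, and matplotlib 3.10.9 were used, and the counting and the limma fit were tested on simulated data.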

Additional observations from a re-analysis of the deposited data

How the results depend on the processing

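With a 2-fold threshold on FPKM + 1, 0 of 9 members at P2, 0 at P5, and 1 at P8 passed between the fractions. These counts were 3 at each stage with 1.5-fold. Between E15 and E18 the count was 0 in place of 1, and from P2 to P8 in Cd73PC it was 1 in place of 2. Without the added 1, the FPKM ratio was 2.85 for Cbx7 at E18 over E15 and 2.06 for Cbx8 in Cd73PC over Cd73NC at P8. Quantile normalization raised the count at P5 from 3 to 5, with Cbx7 (log2 ratio 0.82) and Phc2 (-0.66) added. The other 46 counts stayed within 1.5 times, although the members counted could differ, as given for Cbx2, Cbx8, and Bmi1. Shares moved most, by 5.95 percentage points, with the lower bound of a paralogue in place of its FPKM, and by 2.89 with quantile normalization. Subtracting the rod share from Cd73NC added Cbx6 at P5 (-0.63). The paired test over the stages was added after the data were seen. By adjusted p in limma it called 1 member (Cbx8), and 1 with upper-quartile scaling or a pseudocount of 0.1. It called 2 with quantile normalization (Cbx7 and Cbx8), where the share of all genes called became 12.1% higher and 12.6% lower. Without a filter on low values it called 0 members (2 at an unadjusted p under 0.05) and 0 of 21811 genes (5571 unadjusted). With no replicate block, that is without the stage, it called 0 members (2 unadjusted), and 3.13% of genes higher and 5.05% lower. Leaving out a stage gave 0 to 2 members: Cbx6 and Cbx8 without P2, none without P5 (1 unadjusted), and Cbx2 without P8, with 1 residual degree of freedom each. The mean log2 ratio of Rnf2, -0.04, became 0.0617 with upper-quartile scaling and 0.0330 with quantile normalization, and that of Phc1, -0.09, became 0.00828 with upper-quartile scaling. No replicate of a condition could be left out. With 1 library per condition and unknown absolute depth, none of these differences has an error over animals.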
